A study of Mus musculus with 21 samples.

Results

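The genes described here encode the 5 enzyme complexes of oxidative phosphorylation and proteins named after them. They were chosen by a rule on the symbol, made with earlier results of these data known. A row of the array table was taken where its platform gene symbol began with Nduf, Uqcr or Atp5. Rows were also taken where the symbol began with Cox followed by a digit from 4 to 8, or was Sdha, Sdhb, Sdhc or Sdhd. The rule found 93 of the 19505 genes of the table, each with 1 row, and all 93 were tested without a filter on level. Complex I held 46 of them, complex II 4, complex III 8, complex IV 18 and complex V 17. By their known roles 83 of the 93 are subunits; the others are 8 complex I assembly factors (Ndufaf1 to Ndufaf8), the complex I paralogue Ndufa4l2 and the complex IV relative Cox7a2l, which acts in supercomplex assembly.

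The RNA came from primary T cells of the spleen of wildtype mice. All groups shared activation with beads carrying antibodies to CD3 and CD28, culture in complete RPMI with 2-mercaptoethanol, and magnetic re-isolation of CD8+ cells after 48 h. The groups differed in the medium, with 7 arrays labelled as biological replicates in each: fresh medium, filtered supernatant of bone marrow-derived dendritic cells (DC-conditioned), or filtered supernatant of WEHI 3B cells (AML-conditioned). WEHI 3B is a mouse myelomonocytic leukaemia line, so the AML arm stands for the culture supernatant of 1 line. What the cells secreted and what they used up were not separated. The DC arm sets this against a conditioned medium of non-malignant myeloid cells. Mouse age and strain are not given in the sources used here, nor whether equal replicate numbers in different media mark 1 mouse or day.

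Oxidative phosphorylation takes place at the inner mitochondrial membrane. Complex I (NADH dehydrogenase) and complex II (succinate dehydrogenase) pass electrons to ubiquinone, complex III passes them on to cytochrome c, and complex IV (cytochrome c oxidase) reduces oxygen; complexes I, III and IV pump protons, and complex V (ATP synthase) uses the proton gradient to make ATP. Most subunits are encoded in the nucleus and a few in mitochondrial DNA. Activated CD8+ T cells rely on this system together with glycolysis, and mitochondrial respiration is known to support their expansion and memory formation.

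The 21 arrays correlated pairwise at 0.980 to 0.996 over all genes, and their medians lay between 5.23 and 5.40 on the log2 scale. The labelled cell type was checked on 5 T cell genes (Cd3e, Cd3d, Cd3g, Cd8a and Cd8b1), whose array means were 11.30 to 11.55 over all 3 media. In 1 label field the cells are called CXCL12-abundant reticular cells, against every other field; the mean of the 2 measured stromal markers was 5.53 to 6.07, and none of them was called. Marker means were 4.42 to 5.08 for 4 B cell genes, 3.63 to 4.07 for 5 dendritic cell genes, 4.19 to 4.44 for 6 monocyte and leukaemia genes and 3.17 to 3.62 for 2 neutrophil genes, with 0 genes called in any comparison. Of 3 CD4 T cell genes, Cd4 rose from 7.77 ± 0.31 in fresh to 8.56 ± 0.43 in AML-conditioned medium (SD, n = 7 each; limma adjusted p = 0.0150); the list's array mean was 6.02 to 6.56 in fresh, 6.17 to 6.75 in DC-conditioned and 6.39 to 6.99 in AML-conditioned medium. Of 3 NK cell genes, Eomes, which CD8+ T cells also express, rose by 0.71 against fresh and by 0.79 against DC-conditioned medium (log2; limma adjusted p = 0.00844 and 0.00457); the list's mean was 4.85 to 5.07 in fresh, 4.82 to 5.14 in DC-conditioned and 4.98 to 5.46 in AML-conditioned medium. The part of these shifts in the results below was not tested, and in such bulk samples fewer cells of a kind and less RNA per cell cannot be told apart.

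Between AML-conditioned and fresh medium 1 of the 93 genes passed the test, the complex IV isoform gene Cox6b2, which was higher in AML-conditioned medium. This is 1.08% of the members, against 2.77% of all 19505 genes called in that comparison (1.3% higher and 1.48% lower). Between AML-conditioned and DC-conditioned medium 4 of 93 passed (4.30%, against 2.39% of all genes): Cox6a2 and Cox6b2 were higher, and Sdhd and Uqcrfs1 lower, in AML-conditioned medium, where 1.13% of all genes were higher and 1.26% lower. Between DC-conditioned and fresh medium 0 of 93 passed, as did 0 of all genes. The test was limma's moderated test over all 21 arrays with Benjamini-Hochberg adjustment over all genes, with calls made under an adjusted p of 0.05. The AML comparisons share the AML arrays, and both comparisons with fresh medium share the fresh arrays, so the 3 sets of differences are not independent.

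The differences of the members were small and lay more often below than above 0 when AML-conditioned medium was compared with either other medium. Against fresh medium the fitted log2 difference was below 0 for 65 of 93 genes (69.9%, against 54.4% of all genes), with a median of -0.06 against -0.01 over all genes. Against DC-conditioned medium it was below 0 for 73 of 93 (78.5%, against 48.1%), with a median of -0.07 against 0.01. With each array centred on its median these counts were 58 (46.0% of all genes) and 73 (51.5%). After a further quantile normalization they were 67 (51.3% of all genes) and 66 (49.5%). The group mean was lowest in AML-conditioned medium for 62 of 93 genes (66.7%, against 37.2% of all genes), lowest in fresh medium for 17 (28.1% of all genes) and lowest in DC-conditioned medium for 14 (34.7% of all genes). At an unadjusted p under 0.05, 14 of 93 were lower in AML-conditioned than in fresh medium (15.1%, against 8.78% of all genes) and 20 of 93 were lower than in DC-conditioned medium (21.5%, against 7.44%). Another 3 of 93 were higher in each of these comparisons, against 7.11% and 6.82% of all genes. The arrays of AML-conditioned and fresh medium overlapped for all 93 genes (0.795% of all genes did not overlap). The mean difference over the 93 genes varied between replicates 1 to 3 and replicates 4 to 7, a split chosen after the data were seen. Against DC-conditioned medium it was 0.03 and -0.10, and against fresh medium -0.01 and -0.05.

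The arrays allowed narrow intervals for most members. For 87 of 93 genes the 95% confidence interval of the AML minus fresh difference lay within 0.5 of 0 on the log2 scale, a 1.41-fold change either way; 91.1% of all genes met this. The exceptions were Cox6a2, Cox6b2, Ndufab1, Ndufaf4, Ndufv3 and Sdhd. Against DC-conditioned medium 87 of 93 met it too, against 92.0% of all genes. The median SD over the 7 arrays was 0.113 in fresh, 0.130 in DC-conditioned and 0.137 in AML-conditioned medium for the members, and 0.177, 0.158 and 0.165 for all genes.

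**Figure D1:**
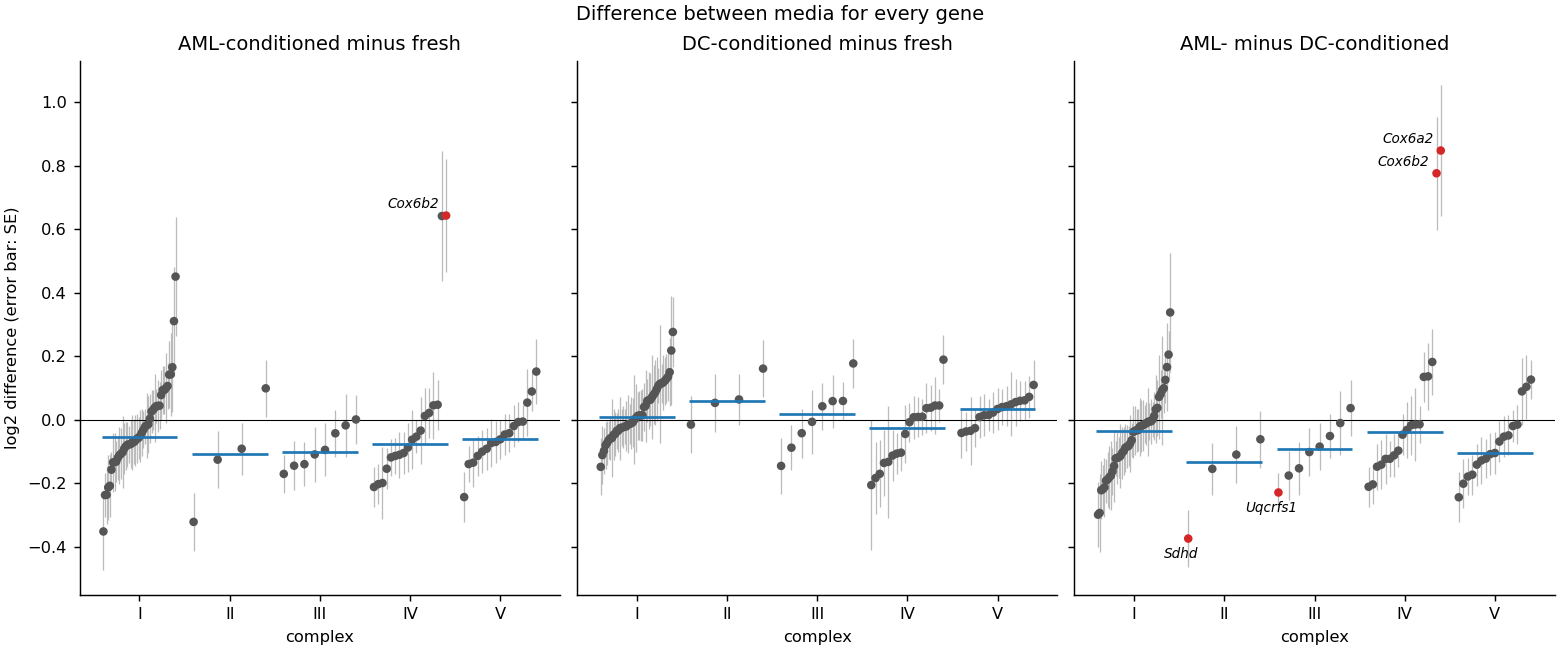
Fitted log2 differences of the 93 genes in the 3 comparisons of media, 1 point per gene by complex with its SE as a bar, called genes in red with their names, the median of each complex as a blue line and a thin line at 0. Most points lie within 0.5 of 0, and the medians of all 5 complexes lie below 0 in both comparisons with AML-conditioned medium.

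Complex I takes electrons from NADH through a chain of iron-sulfur clusters, and its core subunits carry that chain. Of its 46 genes, 0 passed the test in any of the 3 comparisons. The median log2 difference was -0.05 between AML-conditioned and fresh medium and -0.04 between AML-conditioned and DC-conditioned medium, and 29 and 35 of the 46 genes lay below 0. All 6 nuclear-encoded core genes measured (Ndufs1, Ndufs3, Ndufs7, Ndufs8, Ndufv1 and Ndufv2) lay below 0 against fresh medium, between -0.14 and -0.07 (median -0.10).

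Ndufv1 carries the site where NADH binds. It ranged from 9.39 to 9.54 (median 9.47) in fresh, from 9.25 to 9.59 (median 9.50) in DC-conditioned and from 9.24 to 9.49 (median 9.26) in AML-conditioned medium, so the groups overlapped; the AML minus fresh difference was -0.12 (SE 0.069, limma adjusted p = 0.412). Ndufs1, the largest iron-sulfur subunit, differed by -0.07 (SE 0.086, limma adjusted p = 0.763). Among the 31 accessory genes 19 lay below 0 against fresh medium, with a median of -0.03.

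The accessory gene furthest below 0 was Ndufv3, which encodes a small subunit of the NADH-binding module. It ranged from 6.77 to 7.22 (median 7.05) in fresh, 6.69 to 7.23 (median 6.95) in DC-conditioned and 6.13 to 7.13 (median 6.80) in AML-conditioned medium. The AML arrays spread more widely than the others and overlapped both groups. The difference from fresh medium was -0.35 (SE 0.123, limma adjusted p = 0.127), and it passed (-0.43, limma adjusted p = 0.0444) without AML replicate 7. Ndufb3, a membrane-arm subunit, ranged from 7.32 to 7.66 in fresh and from 7.18 to 7.38 in AML-conditioned medium and differed by -0.24 (SE 0.069, limma adjusted p = 0.0615). Ndufb3 passed after a further quantile normalization, without genes under the 25th percentile and with replicates 1 to 3 and 4 to 7 as a block (limma adjusted p 0.0382 to 0.0477), and without fresh replicate 3 or DC replicate 7 (-0.27 and -0.24, limma adjusted p 0.0441 and 0.0492). Ndufab1, the mitochondrial acyl carrier protein, lay 0.31 above fresh medium (SE 0.171, limma adjusted p = 0.396), with 1 fresh array at 7.18 and the other fresh arrays at 8.12 to 8.59. Ndufb4 and Ndufb4b are near-identical copies whose probes may not be told apart. They differed by 0.08 and 0.09 from fresh medium. In AML-conditioned medium Ndufa6, another accessory gene, lay 0.20 above DC-conditioned medium (limma adjusted p = 0.158). Ndufa6 passed there with replicates 1 to 3 and 4 to 7 as a block (limma adjusted p = 0.0376).

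Of the 8 complex I assembly factors, 4 lay above 0 and 4 below in AML-conditioned against fresh medium, and 0 were called. Ndufaf4 ranged from 6.79 to 7.85 (median 7.23) in fresh and from 7.39 to 8.29 (median 7.75) in AML-conditioned medium, a difference of 0.45 (SE 0.186, limma adjusted p = 0.219); with replicates 1 to 3 and 4 to 7 as a block it passed (limma adjusted p = 0.0382). Ndufaf1 ranged from 7.04 to 7.41 (median 7.22) in DC-conditioned and from 6.74 to 7.31 (median 6.84) in AML-conditioned medium, a difference of -0.30 (SE 0.102, limma adjusted p = 0.134). The paralogue Ndufa4l2, a hypoxia-induced gene in other cells, was at 4.07 to 4.67 in fresh and 4.05 to 4.65 in AML-conditioned medium, a difference of 0.04 (limma adjusted p = 0.917). Its relative Ndufa4, whose protein is now assigned to complex IV, differed by -0.06 (limma adjusted p = 0.778).

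Complex II links the tricarboxylic acid cycle to the respiratory chain through 4 proteins, and Sdhd, a membrane anchor that helps to bind ubiquinone, was its called gene. Sdhd ranged from 9.36 to 9.65 (median 9.53) in fresh, from 9.42 to 9.72 (median 9.53) in DC-conditioned and from 8.86 to 9.53 (median 9.23) in AML-conditioned medium. AML replicates 4 and 5 were lowest, at 8.91 and 8.86, and AML replicate 6, at 9.53, lay among the arrays of the other media. Sdhd fell by 0.37 between DC-conditioned and AML-conditioned medium (SE 0.091, 95% interval -0.56 to -0.19, limma adjusted p = 0.0247), a 1.30-fold decrease. The AML arrays of Sdhd spread more widely than those of either other medium, while limma fits 1 spread per gene to all groups. Its SE is therefore somewhat understated in the AML comparisons. Against fresh medium the difference was -0.32 (95% interval -0.51 to -0.14, limma adjusted p = 0.0535), which missed the threshold.

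The Sdhd call against DC-conditioned medium ended without any 1 of DC replicates 4, 6 and 7 or AML replicates 4 and 5 (-0.35 to -0.32, limma adjusted p 0.0589 to 0.0726), and without AML replicates 4 and 5 together the difference was -0.25 (limma adjusted p = 0.209). It also ended in a fit of the 2 groups alone (limma adjusted p = 0.0653). Against fresh medium Sdhd passed without AML replicate 6 or 7 (-0.38 and -0.35, limma adjusted p 0.0126 and 0.0352), and with all arrays it passed after a further quantile normalization, without genes under the 25th percentile, with a trended and robust spread, and with replicates 1 to 3 and 4 to 7 as a block (limma adjusted p 0.0349 to 0.0436). The other anchor, Sdhc, differed by -0.09 from fresh and -0.16 from DC-conditioned medium (SE 0.082, limma adjusted p = 0.646 and 0.406). The flavoprotein Sdha, which oxidises succinate, lay on the other side of 0 against fresh medium, at 0.10 (SE 0.090, limma adjusted p = 0.660). The iron-sulfur subunit Sdhb differed by -0.13 (SE 0.089, limma adjusted p = 0.532).

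Complex III has 1 nuclear-encoded gene here for a redox subunit, Uqcrfs1, which encodes the Rieske iron-sulfur protein that hands electrons towards cytochrome c. It ranged from 9.10 to 9.33 (median 9.28) in fresh, 9.19 to 9.44 (median 9.29) in DC-conditioned and 8.97 to 9.21 (median 9.05) in AML-conditioned medium. The highest AML array lay above the lowest array of each other medium, so the ranges overlapped at their edges. Uqcrfs1 fell by 0.23 from DC-conditioned to AML-conditioned medium (SE 0.060, 95% interval -0.35 to -0.11, limma adjusted p = 0.0400), a 1.17-fold decrease. Against fresh medium the difference was -0.17 (limma adjusted p = 0.133). The call ended without any 1 of DC replicates 1, 3, 4, 6 and 7 or AML replicates 2, 3, 4 and 5 (-0.24 to -0.21, limma adjusted p 0.0602 to 0.109). It also ended after a further quantile normalization, with the 2 groups alone (limma adjusted p = 0.0570 and 0.0770) and without AML replicates 4 and 5 together (-0.20, limma adjusted p = 0.229).

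Of the 8 complex III genes, 7 lay below 0 in AML-conditioned against fresh medium (median -0.10) and 7 lay below 0 against DC-conditioned medium (median -0.09). Uqcrc1, a large core protein on the matrix side, differed by -0.15 from fresh medium (SE 0.077, limma adjusted p = 0.368). Uqcrb, which helps to form the ubiquinone site, stood at 0.00 against fresh medium (limma adjusted p = 1.00). Against DC-conditioned medium Uqcrb differed by -0.18 (limma adjusted p = 0.281).

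Complex IV splits into 10 genes of general isoforms and 7 of isoforms known from particular tissues. The general isoforms were below 0 for 8 of 10 genes against fresh medium (median -0.11) and for 10 of 10 against DC-conditioned medium (median -0.12), and 0 were called in either comparison. Cox5b, a zinc-binding subunit, ranged from 10.29 to 10.52 (median 10.40) in fresh, 10.27 to 10.50 (median 10.38) in DC-conditioned and 10.09 to 10.36 (median 10.13) in AML-conditioned medium. AML replicates 1 to 5 lay between 10.09 and 10.15, under every array of the other media, while AML replicates 6 and 7 lay within them at 10.30 and 10.36. The difference of Cox5b was -0.21 from fresh (SE 0.061, limma adjusted p = 0.0598) and -0.20 from DC-conditioned medium (limma adjusted p = 0.0803). Cox5b passed against fresh medium with replicates 1 to 3 and 4 to 7 as a block, without genes under the 25th percentile and with a trended and robust spread (limma adjusted p 0.0315 to 0.0447), and against DC-conditioned medium with the last of these (limma adjusted p = 0.0395). Without AML replicate 6 or 7 it passed against fresh medium (-0.24 to -0.23, limma adjusted p 0.0277 to 0.0350) and against DC-conditioned medium (-0.23, limma adjusted p 0.0361 to 0.0435).

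Cox4i1, the general isoform of a regulatory subunit that binds ATP, ranged from 9.09 to 9.31 (median 9.16) in fresh, 9.11 to 9.31 (median 9.15) in DC-conditioned and 8.86 to 9.17 (median 8.89) in AML-conditioned medium. The difference was -0.20 from fresh (SE 0.064, limma adjusted p = 0.0851) and -0.21 from DC-conditioned medium (limma adjusted p = 0.0803). Without AML replicate 1, its highest AML array, Cox4i1 passed in both comparisons (-0.24 and -0.25, limma adjusted p 0.0467 and 0.0456). Cox5a, a matrix-side subunit, differed by 0.01 from fresh medium (limma adjusted p = 0.974). Cox8a, a small general isoform, differed by -0.15 (SE 0.064, limma adjusted p = 0.217), Cox6a1 by -0.12 (limma adjusted p = 0.307), Cox6b1 by -0.11 (limma adjusted p = 0.491) and Cox7b by -0.11 (limma adjusted p = 0.478).

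Both genes of the family that rose in AML-conditioned medium are tissue isoforms of complex IV. Cox6b2, the testis-type counterpart of Cox6b1, ranged from 5.63 to 6.61 (median 5.96) in fresh, 5.51 to 6.29 (median 5.78) in DC-conditioned and 5.80 to 7.24 (median 6.66) in AML-conditioned medium. The AML arrays 1 to 7 were at 7.24, 6.91, 6.66, 6.57, 6.90, 5.80 and 6.36, so replicate 6 lay inside the other groups and replicate 1 was highest. Cox6b2 rose by 0.64 against fresh medium (SE 0.178, 95% interval 0.28 to 1.01, limma adjusted p = 0.0487), 1.56-fold. Against DC-conditioned medium it rose by 0.78 (95% interval 0.41 to 1.14, limma adjusted p = 0.0180), 1.71-fold.

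The Cox6b2 call against fresh medium lay close to the threshold: it was kept when fresh replicate 2, DC replicate 2, AML replicate 6 or AML replicate 7 was left out, and it ended without any 1 of the other 17 arrays (0.54 to 0.69, limma adjusted p 0.0510 to 0.123). With all arrays it ended with a trended and robust spread, with array weights and with the 2 groups alone (limma adjusted p = 0.0535, 0.0749 and 0.0935), and without AML replicates 4 and 5 together the difference was 0.60 (limma adjusted p = 0.212). Against DC-conditioned medium Cox6b2 kept its call without any 1 array and lost it without AML replicates 4 and 5 together (0.74, limma adjusted p = 0.113).

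Cox6a2, the heart and skeletal muscle counterpart of Cox6a1, ranged from 6.73 to 7.01 (median 6.83) in fresh, 6.39 to 6.77 (median 6.67) in DC-conditioned and 6.72 to 8.42 (median 7.55) in AML-conditioned medium. The AML arrays were far apart: replicates 4 and 5 were at 8.42 and 8.40, replicates 1 and 2 at 7.55 and 7.66, and replicates 3, 6 and 7 at 6.74, 6.72 and 6.85, inside the range of fresh medium or at its lower edge. Cox6a2 rose by 0.85 against DC-conditioned medium (SE 0.205, 95% interval 0.42 to 1.27, limma adjusted p = 0.0247), 1.80-fold. Against fresh medium the difference was 0.64 (limma adjusted p = 0.0927). The call against DC-conditioned medium ended with the 2 groups alone (limma adjusted p = 0.0830) and without any 1 of DC replicate 4 or AML replicates 2, 4 and 5 (0.69 to 0.82, limma adjusted p 0.0505 to 0.0677), and without AML replicates 4 and 5 together the difference was 0.47 (limma adjusted p = 0.128). Against fresh medium Cox6a2 passed without any 1 of AML replicates 3, 6 and 7 (0.75 to 0.77, limma adjusted p 0.0267 to 0.0421). Because limma fits 1 spread per gene to all 3 groups and the SD of Cox6a2 was 0.739 in AML-conditioned against 0.096 in fresh medium, its SE is understated in the AML comparisons.

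The other 5 tissue isoforms were not called. Cox4i2, the lung-type and hypoxia-linked counterpart of Cox4i1, differed by -0.20 from fresh medium (SE 0.114, limma adjusted p = 0.412). Cox7a1, the muscle counterpart of Cox7a2, differed by -0.09 (limma adjusted p = 0.646), Cox7b2 by -0.06 (limma adjusted p = 0.813), Cox8b by 0.02 (limma adjusted p = 0.941) and Cox8c by -0.03 (limma adjusted p = 0.923). Cox7b2 and Cox8b were dim, at 2.54 to 3.12 and 3.65 to 4.34 over all arrays, and differences of such genes can be compressed. Over all 18 complex IV genes the median AML minus DC difference was -0.04 while the mean was 0.04, since Cox6a2 and Cox6b2 lie far above the other genes.

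**Figure D2:**
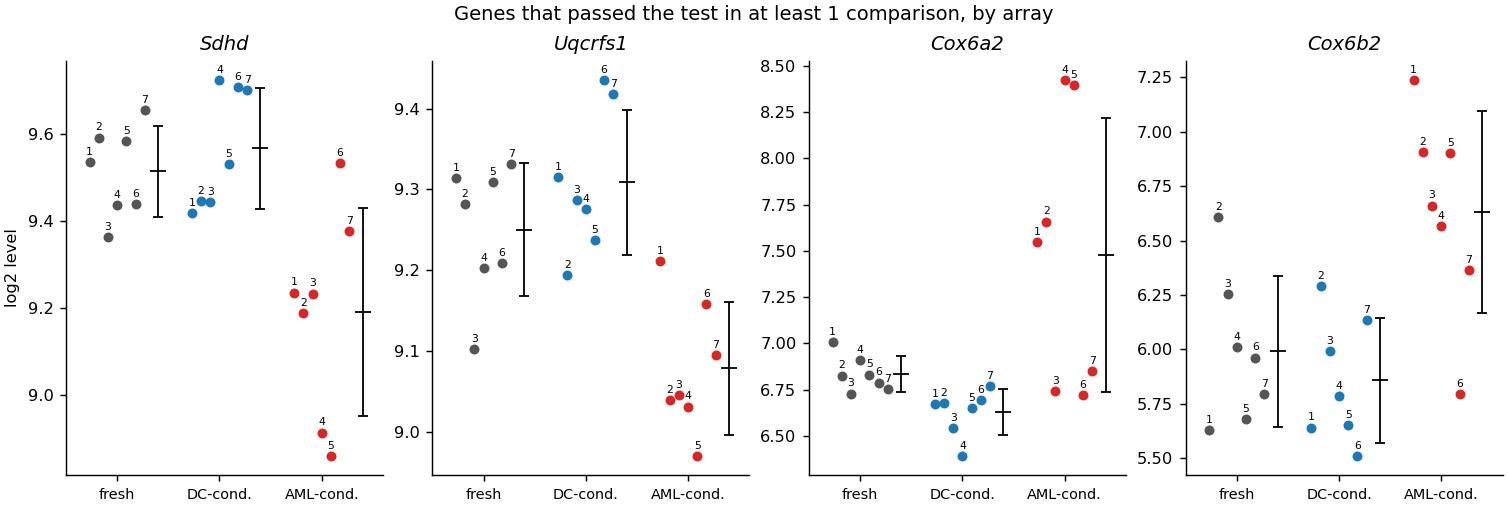
Log2 levels of the 4 called genes, Cox6b2, Cox6a2, Sdhd and Uqcrfs1, with 1 point per array in each of the 3 media, replicate numbers above the points, and the mean with its SD as a bar (n = 7). AML replicates 4 and 5 are the highest 2 arrays of Cox6a2 and the lowest 2 of Sdhd and of Uqcrfs1.

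**Figure D3:**
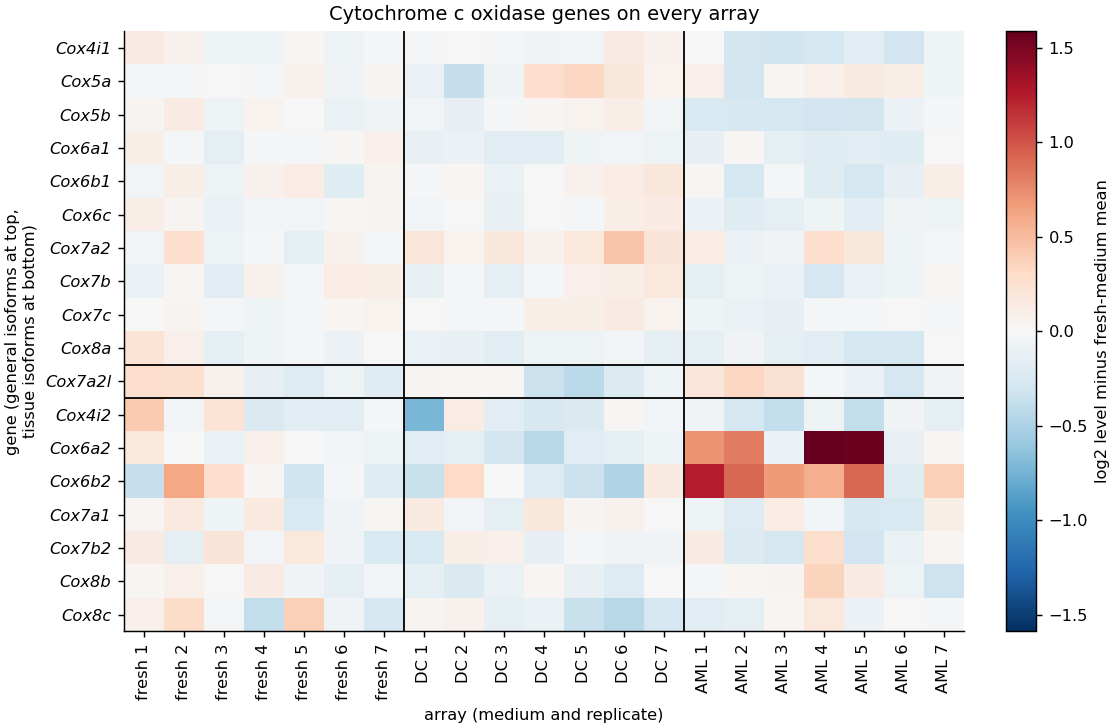
Heat map of the 18 complex IV genes (rows, general isoforms, Cox7a2l and tissue isoforms) in the 21 arrays (columns, by medium and replicate), coloured by the log2 level minus the gene's mean in fresh medium. Cox6a2 and Cox6b2 stand out above fresh medium in most AML arrays, and Cox5b, shown in pale blue, is lower in AML replicates 1 to 5 than in replicates 6 and 7.

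The promoters of 3 of the 4 called genes are shown because nuclear genes of the respiratory chain are known to be co-regulated through short promoter words. Each sequence is the 250 bases before the start of the gene, from RefSeq in build GRCm38.p6, on the strand of the gene, with matches to any of 4 words in capitals. The words, searched on both strands, were GCATGCGC (NRF1), CCGGAAG (ETS factors, which include GABP), GGGCGG (SP1) and ACGTG (the core of a hypoxia response element), and no word contains another. The first lies at chr7:4753095-4753344, the second at chr9:50603850-50604099 and the third at chr13:30545317-30545566, all on the minus strand.
Cox6b2: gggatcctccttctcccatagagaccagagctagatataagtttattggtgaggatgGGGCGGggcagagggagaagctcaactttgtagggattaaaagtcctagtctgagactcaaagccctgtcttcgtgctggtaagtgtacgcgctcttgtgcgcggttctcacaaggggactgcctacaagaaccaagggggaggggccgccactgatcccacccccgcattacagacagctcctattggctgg
Sdhd: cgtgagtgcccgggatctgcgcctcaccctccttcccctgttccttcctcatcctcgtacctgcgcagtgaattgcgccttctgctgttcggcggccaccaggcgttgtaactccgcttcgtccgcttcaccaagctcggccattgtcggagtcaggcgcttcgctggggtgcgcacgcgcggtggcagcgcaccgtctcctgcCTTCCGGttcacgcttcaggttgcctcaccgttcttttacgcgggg
Uqcrfs1: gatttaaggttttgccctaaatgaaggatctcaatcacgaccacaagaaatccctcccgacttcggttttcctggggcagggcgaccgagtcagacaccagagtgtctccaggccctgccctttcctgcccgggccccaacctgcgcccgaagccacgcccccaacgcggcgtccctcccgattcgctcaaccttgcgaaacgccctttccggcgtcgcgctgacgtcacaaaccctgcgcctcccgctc
The Cox6b2 window held 1 SP1 word, the Sdhd window 1 ETS word on the opposite strand, and the Uqcrfs1 window none of the 4 words. RefSeq windows of the same length were found for 77 of the 93 genes (82 promoters). The NRF1 word was in 9 of these 82 (11%, against 2.26% of all 32851 promoters) and the ETS word in 14 (17.1%, against 6.91%). The SP1 word was in 31 (37.8%, against 32.7%) and the hypoxia core in 16 (19.5%, against 16.6%). A match describes letters only and does not show binding.

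Complex V consists of the catalytic F1 head and of the stalk and membrane part through which protons pass. Of its 17 genes, 14 lay below 0 in AML-conditioned against fresh medium (median -0.06) and 14 against DC-conditioned medium (median -0.11), and 0 were called in any comparison. Atp5a1 and Atp5b, which form the catalytic head, differed by -0.07 and -0.05 from fresh medium (SE 0.067 and 0.065, limma adjusted p = 0.673 and 0.797). Atp5c1, the rotating shaft of the head, ranged from 10.26 to 10.53 in fresh, 10.35 to 10.49 in DC-conditioned and 10.13 to 10.34 in AML-conditioned medium. It was the 1 member of 93 (1.08%, against 0.815% of all genes) whose AML and DC arrays did not overlap. Its difference of -0.18 did not pass (SE 0.057, limma adjusted p = 0.103).

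In the membrane part, Atp5k, a small subunit near the dimer interface, ranged from 6.40 to 6.95 (median 6.69) in fresh and from 6.33 to 6.58 (median 6.41) in AML-conditioned medium. Its difference was -0.24 (SE 0.078, limma adjusted p = 0.0923), and it passed without fresh replicate 3 (-0.29, limma adjusted p = 0.0441). Atp5pb, the peripheral stalk subunit b, differed by -0.24 from DC-conditioned medium (SE 0.078, limma adjusted p = 0.103). The 3 genes of the proton-carrying c ring encode the same mature protein, and Atp5g1, Atp5g2 and Atp5g3 differed from fresh medium by 0.05, 0.09 and -0.07 (limma adjusted p = 0.874, 0.525 and 0.698). Atp5e, a small subunit of the head, lay 0.15 above fresh medium (limma adjusted p = 0.503).

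Levels in DC-conditioned medium lay close to those in fresh medium. The median log2 difference over the 93 genes was 0.01, 41 of 93 lay below 0 (44.1%, against 54.8% of all genes), and 90 of 93 had a 95% interval within 0.5 of 0 (96.1% of all genes had). The side of 0 depended on the scaling: 49 lay below 0 after a further quantile normalization (52.7%, against 51.3% of all genes). With each array centred on its median, 26 lay below 0 (28.0%, against 40.9% of all genes). At an unadjusted p under 0.05, 3 of 93 members were higher and 0 lower in DC-conditioned medium, against 2.13% and 4.29% of all genes. These were Ndufs5, an accessory complex I gene (0.28, SE 0.109, limma adjusted p = 0.707), Cox7a2, a general complex IV isoform (0.19, SE 0.078, limma adjusted p = 0.744), and Uqcrb of complex III (0.18, SE 0.078, limma adjusted p = 0.757). Ndufs5 was at 6.30 in fresh replicate 1 and at 6.87 to 7.34 in the other fresh arrays. Without fresh replicate 1 its difference was 0.17. The median of complex IV was -0.03 and turned to 0.01 with centring, and that of complex I was 0.01 and turned to -0.01 with quantile normalization. Complexes II, III and V had medians of 0.06, 0.02 and 0.03 in DC-conditioned medium.

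Array by array, the members of a complex were averaged after each gene was set relative to its mean in fresh medium. The complex II mean was lowest in AML replicates 4 and 5, at -0.28 and -0.30, and highest among the AML arrays in replicate 6, at 0.12; 4 of the 7 AML arrays lay below all fresh arrays and 1 above all of them. The complex III mean ran from -0.14 to -0.05 in AML-conditioned and from -0.10 to 0.08 in fresh medium, and 3 AML arrays lay below all fresh arrays. The complex I mean ran from -0.06 to 0.03 in AML-conditioned medium and from -0.10 to 0.14 in DC-conditioned medium, with SDs of 0.029 and 0.108. The complex IV mean ran from -0.12 to 0.09 in AML-conditioned and from -0.05 to 0.11 in fresh medium. The complex V mean ran from -0.10 to 0.02 in AML-conditioned and from -0.10 to 0.09 in fresh medium.

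Replicates 1 to 3 and replicates 4 to 7 stood apart in DC-conditioned medium, a split chosen after the data were seen. There the complex I mean was -0.10 to -0.07 in the first set and 0.08 to 0.14 in the second, and that of complex III was -0.15 to -0.05 and 0.05 to 0.14. In fresh medium the complex I mean was -0.14 to -0.01 and 0.02 to 0.07, and in AML-conditioned medium the 2 sets overlapped, at -0.06 to -0.03 and -0.04 to 0.03. The AML minus DC difference therefore varied with the set: for complex I it was 0.05 in the first set and -0.12 in the second, for complex II -0.04 and -0.28, for complex III 0.00 and -0.17, for complex IV 0.07 and 0.02, and for complex V -0.03 and -0.11. Against fresh medium it was 0.03 and -0.07 for complex I, -0.06 and -0.15 for complex II, -0.09 and -0.09 for complex III, -0.05 and 0.03 for complex IV, and -0.06 and -0.05 for complex V. In the 2 sets Sdhd differed from DC-conditioned medium by -0.22 and -0.49, and Uqcrfs1 by -0.17 and -0.28. Cox6b2 differed from it by 0.96 and 0.64, and Cox6a2 by 0.68 and 0.97. These 4 genes were called on the same arrays, so their shared sign in both sets is not independent evidence for the calls. Whether the sets mark different days or animals was not tested.

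**Figure D4:**
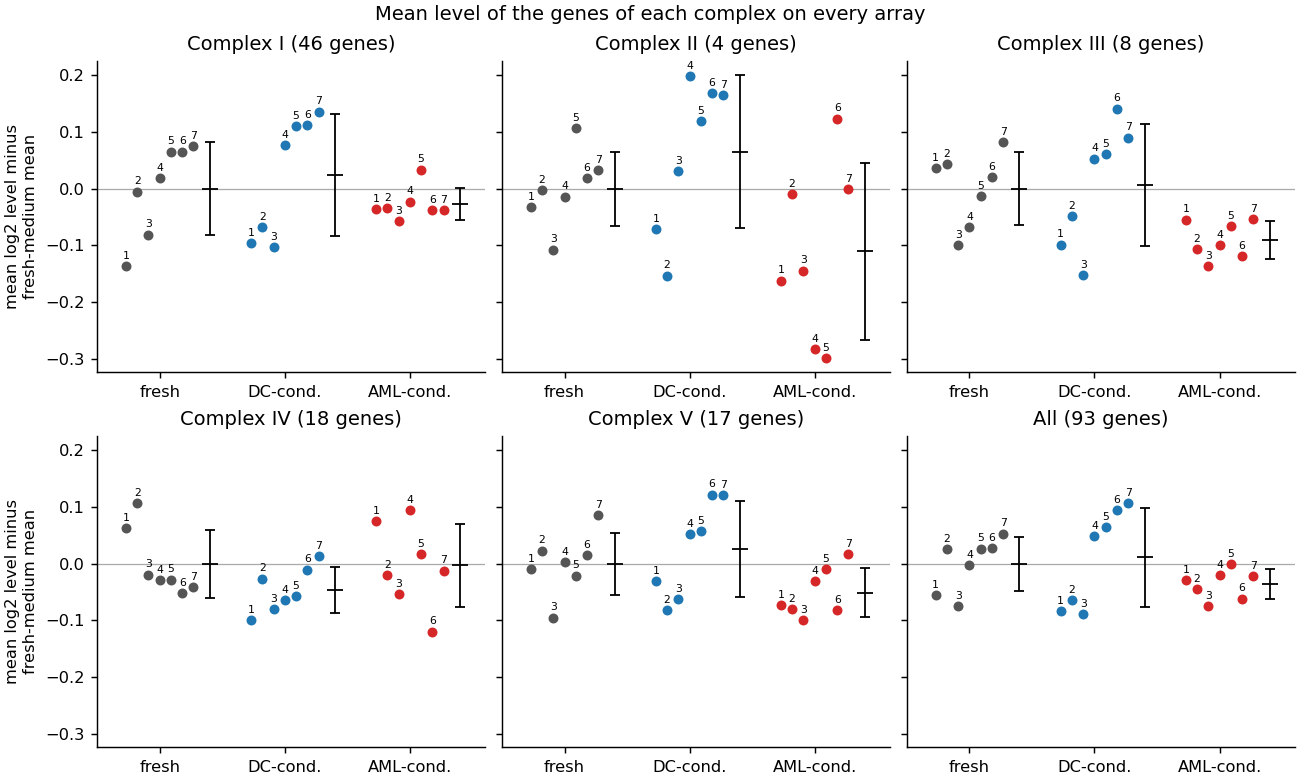
Mean log2 level of the genes of each complex relative to fresh medium, for all 93 genes in the last panel, 1 point per array with its replicate number, by medium; bars give the mean and SD of 7 arrays. In DC-conditioned medium replicates 4 to 7 lie above replicates 1 to 3 for complexes I, II, III and V, and complex II is lowest in AML replicates 4 and 5.

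The genes around the complexes were read from lists of known pathway members. Of 12 measured genes for electron carriers and for complex III and IV proteins with other names, 0 were called, with a median AML minus fresh difference of -0.06; Cycs, which encodes cytochrome c, stood at 0.26 (SE 0.134, limma adjusted p = 0.365) and Coq4, which acts in ubiquinone synthesis, at -0.26 (limma adjusted p = 0.266). Of 39 assembly factors outside the name rule, 1 rose and 38 did not pass (median 0.03), a called share of 2.56% near the 2.77% of all genes: Atpaf1, which assembles the ATP synthase head, rose by 0.28 (SE 0.072, limma adjusted p = 0.0376). Of 17 tricarboxylic acid cycle genes 0 were called (median -0.03), the furthest from 0 being Suclg2, a succinyl-CoA ligase subunit, at -0.29 (limma adjusted p = 0.181). Of 14 regulators of mitochondrial biogenesis 0 were called (median 0.00), with Ppargc1b at 0.21 (limma adjusted p = 0.207) and Pprc1 at 0.30 (limma adjusted p = 0.581). In DC-conditioned against fresh medium 0 genes of these lists were called. Of the 13 mitochondrially encoded subunits listed, 0 were found among the genes of the table under the listed symbols, so they were not analysed here.

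The list of hypoxia-linked genes of mitochondrial respiration differed from the complexes in size of change. Of its 8 genes, 5 fell in AML-conditioned against fresh medium and 5 against DC-conditioned medium, with a median of -0.56 in both; 1.48% and 1.26% of all genes were called lower in these comparisons. Pdk1, the kinase that restrains pyruvate dehydrogenase, fell by 0.51 (SE 0.094, limma adjusted p = 0.00481), and the mitophagy receptor genes Bnip3 and Bnip3l fell by 1.13 and 0.77 (limma adjusted p = 0.0168 and 0.0121). Bnip3 was at 7.93 and 7.34 in AML replicates 4 and 5, at 8.78 to 9.09 in replicates 1 to 3, and at 9.73 and 9.88 in replicates 6 and 7, inside the fresh range of 9.70 to 10.02; its SD was 0.912 in AML-conditioned and 0.106 in fresh medium, so its SE is understated too. Higd1a, which encodes a hypoxia-induced partner of complexes III and IV, fell by 0.61 (SE 0.131, limma adjusted p = 0.0126), and Mxi1, a MYC antagonist, by 0.97 (limma adjusted p = 0.00573). Against DC-conditioned medium Pdk1, Bnip3, Bnip3l, Higd1a and Mxi1 fell by 0.51, 1.14, 0.66, 0.61 and 0.87 (limma adjusted p = 0.00470, 0.0167, 0.0298, 0.0132 and 0.0127). The list was made with earlier results of these data known and is not independent evidence of a direction. Its members within the complexes, Ndufa4l2 and Cox4i2, and Lonp1, a mitochondrial protease known to degrade the complex IV subunit made from Cox4i1, did not pass; Lonp1 stood at -0.33 against fresh medium (limma adjusted p = 0.254).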

How the data were processed

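Expression was measured on 21 Affymetrix 1-colour arrays, 7 per medium, grouped by the labels. The deposited values are log2 levels per transcript cluster that the authors made by RMA with oligo (versions not given), per the submitters' processing notes; background correction, quantile normalization and probe summary are part of RMA, which can compress differences of dim genes, and no separate detection value was available. Of 22203 rows, 19572 had 1 gene symbol, 0 several and 2631 none in the platform annotation; the brightest row was kept for 55 symbols with more than 1, leaving 19505 genes. All 93 symbols matched the GRCm38.p6 gene table by gene identifier.

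Differences were fitted with limma 3.58.1 in R 4.3.3 (lmFit and eBayes, all 21 arrays, no covariate, two-sided) and adjusted by Benjamini-Hochberg over all genes, with an adjusted p under 0.05 as threshold; the script was tested on simulated data. Complexes are described by counts and medians without a test. P-values measure the spread between these samples, whose origin in separate mice the labels do not state. RMA levels are not comparable between genes. The members, the pathway lists and 2 of the alternatives were chosen with earlier results of these data known. Named were all called members, in each complex and comparison the 2 members with the largest absolute difference, catalytic subunits and isoform families, and of the pathway lists the called genes or the 2 with the largest difference. Other members, such as Ndufb3, Cox5b and Atp5c1, were named for their role or after their values were seen. The 32 alternatives covered scaling, filtering, blocking, spread estimates and omitted arrays.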

Additional observations from a re-analysis of the deposited data

Results flagged for a closer look

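In all, 162 sets of 7 arrays were examined, each 1 member named in the text (Ndufa6 aside) or 1 complex mean, in 1 medium. Of these, 8 had a highest or lowest array whose gap to the next, as a share of the set's range, was above Dixon's 95% critical value for 7 values. Chance alone gives about 1 in 20. Ndufab1, the mitochondrial acyl carrier protein, was at 7.18 in fresh replicate 1, with the other fresh arrays at 8.12 to 8.59. Atp5e, a small subunit of the ATP synthase head, was at 5.77 in fresh replicate 5, with the others at 6.21 to 6.41. Cox7a2, a general complex IV isoform, was at 8.69 in DC replicate 6, with the others at 8.30 to 8.44. Ndufs1, a core subunit of complex I, was at 8.51 in AML replicate 6, with the others at 8.11 to 8.22. The complex I mean relative to fresh medium was 0.033 in AML replicate 5, with the other AML arrays at -0.057 to -0.023. Ndufv2, a core subunit of complex I, was at 8.57 in fresh replicate 1, with the others at 9.03 to 9.27, and at 8.86 in DC replicate 2, with the others at 9.12 to 9.28. Ndufs3, another core subunit, was at 9.20 in AML replicate 2, with the others at 9.46 to 9.65.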

How the results depend on the processing

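The medians of the 5 complexes in the 3 comparisons moved by less than the spread between arrays in all 32 alternatives, though some small medians moved by over 1.5 times. That limit is wide beside the medians and allows a change of sign. Between DC-conditioned and fresh medium the medians of complexes I, III and IV changed sign in some alternatives. Between AML-conditioned and DC-conditioned medium that of complex I (-0.04) was -0.07 to -0.06 without any 1 of DC replicates 1, 2 and 3 or AML replicates 1 and 4 and -0.02 without DC replicate 6, and that of complex IV (-0.04) was -0.08 to -0.06 without any 1 of DC replicates 1 and 2 or AML replicate 4. Without AML replicates 4 and 5 the complex II median was -0.03 against fresh and -0.06 against DC-conditioned medium. No member was called between DC-conditioned and fresh medium in any of them (at an unadjusted p under 0.05 the main analysis with limma had 3). The number of members called between AML-conditioned and fresh medium, 1 in the main analysis, was 5 with replicates 1 to 3 and 4 to 7 as a block, 4 without genes under the 25th percentile, 3 after a further quantile normalization, 2 with a trended and robust spread estimate, and 0 with array weights, with the 2 groups alone or without AML replicates 4 and 5. Over all genes these calls numbered 541 in the main analysis, 1026 with that block, 646 with that filter and 612 after that normalization. They numbered 582 with that spread, 416 with array weights, 246 with the 2 groups alone and 111 without AML replicates 4 and 5. Leaving out 1 array at a time gave 0 to 5 members, and 218 to 776 of all genes. Between AML-conditioned and DC-conditioned medium, 4 in the main analysis, the count was 1 with the 2 groups alone, 0 without AML replicates 4 and 5, and 1 to 5 without 1 array. Over all genes it was 466 in the main analysis, 249, 92 and 220 to 784 in these settings. The cause of these changes was not tested, except that leaving out arrays leaves fewer samples. The mean was lowest in AML-conditioned medium for 58 members after quantile normalization, 55 after centring and 63 without AML replicates 4 and 5, against 62. The shares of all genes were 36.7%, 34.7% and 37.1%, against 37.2%. Of 8646 values of the 93 members under the alternatives, 8262 kept their sign and call, 47 ended a call, 31 made one, and 306 changed sign without a call on either side. The number of arrays limits the precision, and levels near the floor compress differences.

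The replicate numbers were checked as a pairing on deviations, that is, each gene's value minus its mean in that medium. In these deviations 13 of 21 same-numbered pairs of arrays correlated above 0.1. Of the 21 arrays, 7 correlated best with their own number in another medium. Same-numbered correlations were 0.07 to 0.27 for AML- with DC-conditioned medium, 0.04 to 0.36 for DC-conditioned with fresh, and -0.11 to 0.21 for AML-conditioned with fresh. Those of unequal numbers were -0.23 to 0.29, -0.35 to 0.35 and -0.28 to 0.18. These values do not settle whether the numbers pair the samples, and the main fit used no pairing. With the replicate block, 3 members were called between AML-conditioned and fresh medium (Cox6b2, with Sdhd and Ndufb3 at limma adjusted p = 0.0375 and 0.0476), 5 between AML-conditioned and DC-conditioned medium (Ndufaf1 in addition, limma adjusted p = 0.0357) and 0 between DC-conditioned and fresh medium; over all genes the block gave 1012, 784 and 1.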
